A study of Mus musculus with 8 samples.

Results

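The genes of the DNA replication machinery were followed across mouse embryonic germ cell lines, PGC-like cells, induced primordial germ cells and primordial germ cells of the embryo. A list of 41 gene symbols was set for this machinery, and a gene was a member where its symbol stood in the deposited expression table. Rows were found for 39 of the 41, among 20153 gene identifiers in all. Gins2 and Gmnn were not analysed here. All 39 also passed the filter on low values, 1 FPKM or more in at least 2 libraries, which left 11083 genes to be tested.

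RNA was measured in 8 libraries, 2 per group, each from a small number of cells. The embryonic germ cells (EGCs) were pluripotent lines derived from sorted E9.5 primordial germ cells of the strain Oct4gfpXCD1, grown in serum and LIF on feeder fibroblasts to passage 6. Each EGC library was 1 line, line 4 or line 7, and about 500 cells went into it. The PGC-like cells (PGCLCs) came from BVSC embryonic stem cells, which passed through an epiblast-like state and were then aggregated, and were used at passage 21 and at 300 to 500 cells. Induced PGCs (iPGCs) were made from BVSC cells at passage 21 in hanging drops and used at 1500 cells. Endogenous PGCs were of the strain Oct4gfpXCD1, taken from embryos at E9.5 without passage and used at about 250 cells. EGCs and PGCs shared the strain but differed in culture, passage and cell number, and PGCLCs and iPGCs shared source and passage but differed in method and cell number. Between these pairs, strain, origin and passage also differed with the group. What differed with the groups in a comparison cannot be told apart.

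Replication of the genome starts at origins, which the origin recognition complex (ORC) marks and on which Cdc6 and Cdt1 load the ring-shaped MCM helicase while the cell is in G1. The kinase of Cdc7 and Dbf4, with cyclin-dependent kinases, then lets Cdc45 and the GINS complex join MCM, which makes the active helicase. Primase and polymerase alpha lay down primers, polymerase epsilon and polymerase delta copy the leading and lagging strands, the clamp PCNA and its loader RFC hold them on DNA, and RPA covers the single strands. Fen1 trims the ends of Okazaki fragments. Many of these genes are transcribed under E2F factors as cells enter S phase. Pluripotent stem cells of the mouse are known for a short G1 and a large share of cells in S phase.

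Library facts that bear on these genes were as follows. FPKM scales the fragments of a gene to its length and to the depth of the library, so levels of different genes can be set roughly beside each other. The RNA was amplified, and differences between genes in amplification or coverage were not tested. Depth, read off the step that 1 fragment adds to low genes, was approximately 2.9 M reads for iPGC library 1, 8.22 M for PGCLC library 1 and 15.0 to 20.8 M for the 6 others. The summed level of 10 germ cell markers, Dppa3 and Kit among them, was 63.0 and 127 FPKM in EGC lines 4 and 7, and 429 to 912 FPKM in the 6 libraries of the other groups. Most of each sum was Dppa3, at 40.3 and 101 FPKM in EGC lines 4 and 7 and 317 to 726 FPKM in the 6 others. Dazl went the other way between EGCs (1.12 and 0.805 FPKM) and PGCs (0 and 0.156 FPKM), and Ddx4 and Dnd1 overlapped between them. The 10 pluripotency markers summed to 296 and 377 FPKM in PGC libraries 1 and 2 and to 513 to 1007 FPKM in the 6 others. Of these markers, Pou5f1 was at 24.7 FPKM or more in all 8 libraries, while Klf4 was at 0.349 and 0 FPKM in PGCs. Dppa5a was lower in both PGC libraries (6.78 and 20.1 FPKM) than in every other library (73.4 to 370 FPKM). For Sall4 and Sox2 the order was reversed, with both PGC libraries above all others. Sall4 reached 193 and 194 FPKM there, against 56.7 to 133 FPKM elsewhere. The PGC libraries stood apart in some markers that they shared and in others that differed between them. Both held S100a9 (15.6 and 8.77 FPKM) and Fcer1g (21.4 and 4.85 FPKM), each listed at 0 in the 6 others. The 8 mesoderm markers summed to 59.0 and 23.9 FPKM in PGC libraries 1 and 2, and to at most 16.6 FPKM in the 6 others. Of these, T was at 37.9 FPKM in PGC library 1 and 0 in PGC library 2. In PGC library 1 the 8 yolk sac endoderm markers summed to 197 FPKM against 0.413 to 14.6 FPKM in the 7 other libraries, and the 10 myeloid and platelet markers to 163 against 3.21 to 34.3 FPKM. In PGC library 2 the 5 erythroid markers with a row summed to 32.7 FPKM, all of it Alas2, against 0.0735 to 9.38 FPKM in the 7 other libraries. The 7 fibroblast markers summed to 0.977 and 3.56 FPKM in the EGC libraries, with Col1a2, Col3a1, Dcn, Lum and Postn listed at 0 in both. Nearly all of these sums was Thy1, at 0.963 and 3.56 FPKM in EGC lines 4 and 7, and line 7 was its highest library. The highest sum of the 7 markers was 15.8 FPKM, in PGC library 1. The part of these other cell types in the replication gene values was not tested.

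Most replication genes were at moderate levels in all 4 groups, and 1 gene, Pold2, was near 0 in PGCs. The median FPKM over the 39 genes was 22.4 and 20.3 in EGC lines 4 and 7, 34.4 and 24.6 in PGCLC libraries 1 and 2, 29.7 and 26.7 in iPGCs, and 22.5 and 29.5 in PGCs. Over all tested genes, the library medians ran from 4.12 to 7.12 FPKM, so this list lay well above the typical gene in every library. The EGC medians of the list were the lowest, although that of line 4 was next to that of PGC library 1.

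**Figure D1:**
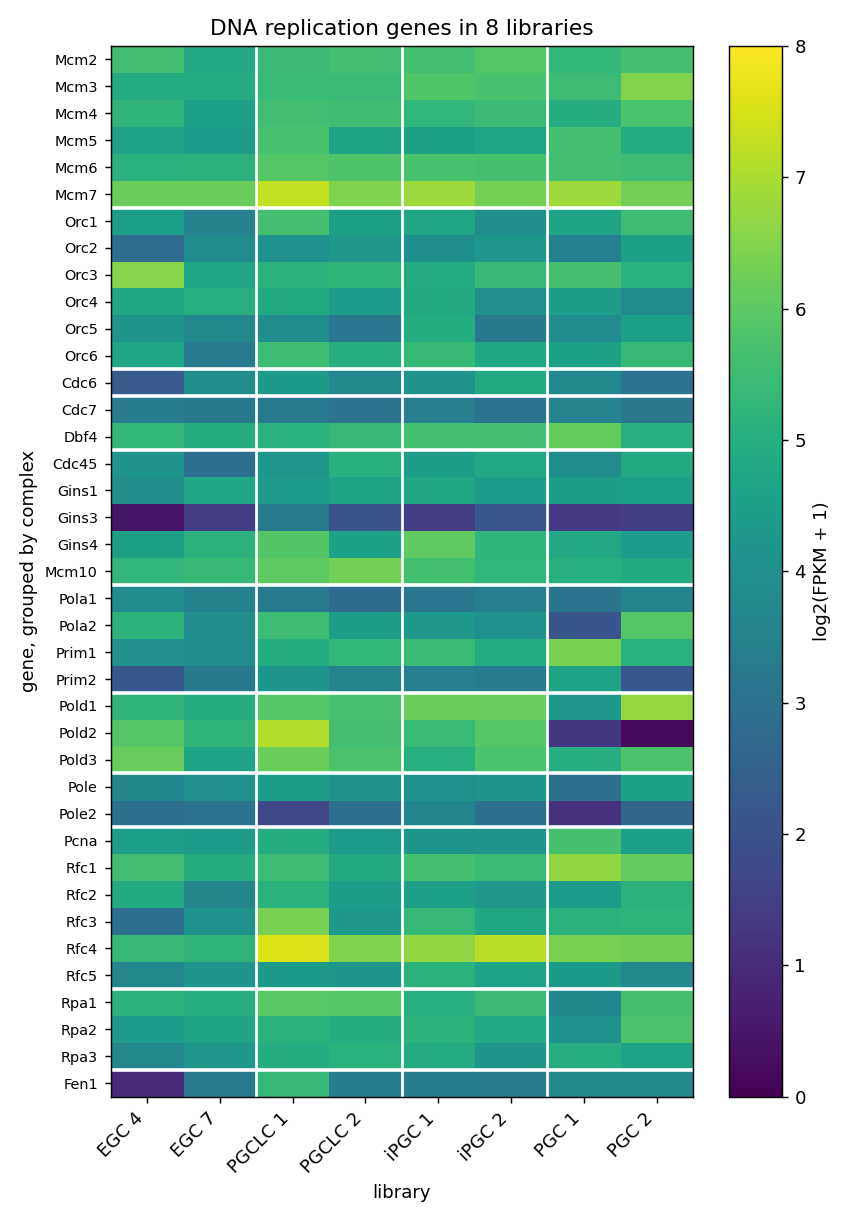
Level of each of the 39 replication genes, as log2(FPKM + 1) on the colour scale, in 8 libraries (columns) with genes grouped by complex (rows, white lines). Mcm7 and Rfc4 are bright in most libraries, Gins3 is dark throughout, and Pold2 is dark in the 2 PGC libraries alone.

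Differences were tested with limma on log2(FPKM + 1) over all 11083 genes, with Benjamini-Hochberg adjustment at 0.05. Differences are given as the log2 difference of the group means ± its SE in limma, with the first-named group minus the other. Each mean is over 2 libraries. The SE rests on a spread estimated over all 4 groups, and not on the 2 groups compared alone. Against PGCs, 1 of 39 members passed in EGCs, higher, and 0 lower, where 0.523% of all tested genes passed as higher and 0.217% as lower, 0.74% in all. Likewise 1 of 39 passed as higher in PGCLCs, where 0.938% of all genes were higher, 0.117% lower and 1.06% either, and 1 of 39 in iPGCs, where 0.749% were higher, 0.0451% lower and 0.794% either, with 0 members lower in both. In all 3 comparisons the gene was Pold2. These comparisons share the 2 PGC libraries. In EGCs against PGCLCs 0 of 39 passed, where 0.0632% of all genes were higher, 0.0361% lower and 0.0993% either. In EGCs against iPGCs it was 0 of 39, beside 0.0632% higher, 0.0541% lower and 0.117% either. In PGCLCs against iPGCs it was also 0 of 39, beside 0.00902% in each direction and 0.018% in all. In the limma F test over the 4 groups, 1 of 39 passed, again Pold2, and 0.505% of all genes.

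At an unadjusted p below 0.05 in limma, 5 of 39 members differed in EGCs against PGCs, 3 in PGCLCs against PGCs and 1 in iPGCs against PGCs, where 17.2%, 19.5% and 19.5% of all genes did. The numbers were 4, 1 and 0 of 39 in EGCs against PGCLCs, EGCs against iPGCs and PGCLCs against iPGCs, beside 13.9%, 10.3% and 4.68% of all genes. Pairs of libraries leave only large differences detectable, so a member that did not pass is not shown to be alike in the groups. In these bulk libraries, a lower level may come from fewer cells that replicate or from less RNA of the gene per cell, and these cannot be told apart.

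The median log2 difference of the 39 members was -0.39 in EGCs against PGCs, beside 0.07 over all genes, and 28 of 39 members (71.8%) were negative, against 46.9% of all genes. Over the 4209 genes with a mean of at least 10 FPKM the median was -0.13, closer to that of the members. Without PGC library 2 the member median was -0.25, and without PGC library 1 it was -0.51. The direction held with quantile normalization (-0.18) and with equal library medians (-0.49). In EGCs against PGCLCs the medians were -0.66 for the members and -0.38 for all genes, and in EGCs against iPGCs -0.45 and -0.40. For PGCLCs against PGCs they were 0.25 for the members and 0.44 for all genes, and for iPGCs against PGCs 0.06 and 0.47, and both list medians turned negative with equal library medians (-0.29 and -0.43) and with quantile normalization (-0.04 and -0.08). In PGCLCs against iPGCs the member median was 0.14 and that of all genes -0.0035, and the member median turned to -0.02 with quantile normalization. The sign also rested on single libraries, since the median in iPGCs against PGCs was -0.15 without PGC library 1 and 0.28 without PGC library 2, and that in PGCLCs against iPGCs was -0.02 without PGCLC library 1. In PGCLCs against PGCs it was 0.09 without PGC library 1.

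**Figure D2:**
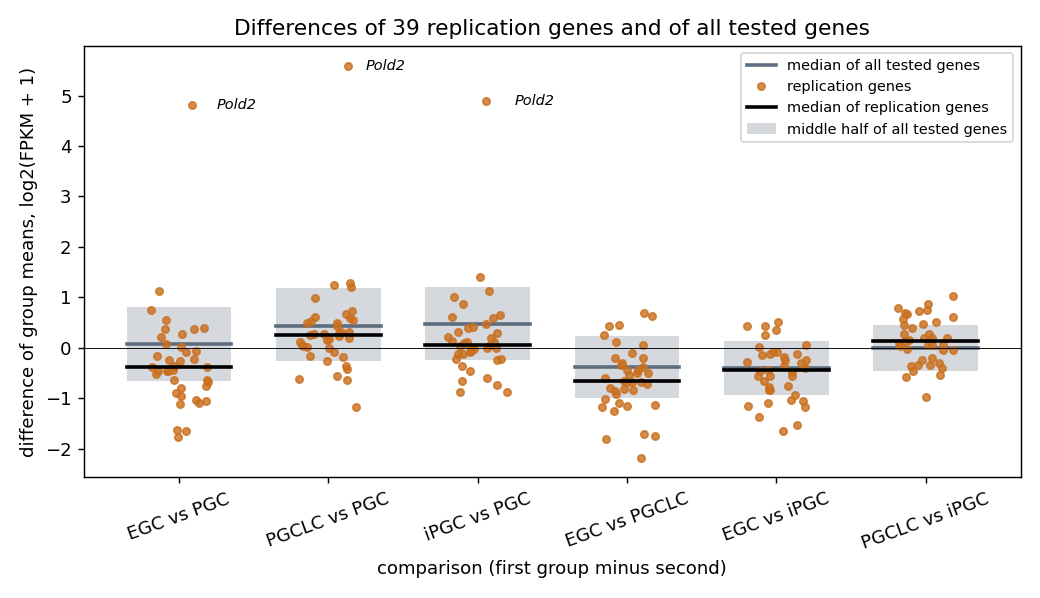
Log2 differences of the 39 replication genes (orange points) in 6 comparisons, first-named group minus the second, with their median (black line) over the median and quartile box of all tested genes (grey line and box). Apart from Pold2 at 4.80, 5.59 and 4.90 in the comparisons with PGCs, the points lie between -2.18 and 1.40, and the member median lies below 0 in the EGC comparisons.

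Both EGC libraries lay below both PGC libraries for 12 of 39 members (30.8%), beside 20% of all genes. That share was 22 of 39 (56.4%) in EGCs against PGCLCs and 20 of 39 (51.3%) in EGCs against iPGCs, beside 34.2% and 39.5% of all genes. Among the 4209 genes with a mean of at least 10 FPKM, the shares were 26.4%, 42.3% and 44.9%, nearer to those of the members. In the other direction, 4, 2 and 2 of 39 members had both EGC libraries above both PGC, PGCLC or iPGC libraries, beside 24.1%, 11.8% and 10.8% of all genes. Both PGCLC libraries were above both PGC libraries for 6 members and below for 2, beside 33.5% and 11.8% of all genes. Both iPGC libraries were above both PGC libraries for 8 and below for 4, beside 39.4% and 13.1%. Both PGCLC libraries were above both iPGC libraries for 10 members and below for 6, beside 17.3% and 19.6% of all genes.

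The 6 genes Mcm3, Mcm6, Mcm7, Prim1, Rfc3 and Rfc4 had both EGC libraries below all 6 other libraries, 6 of 39 where 9.11% of all genes did. They were picked by these values, so this is a description with no test. The number was 14 of 39 without PGC library 1 (14.7% of all genes), 16 without EGC line 4 (16.1%) and 12 without EGC line 7 (21.5%). It was 6 to 9 without any 1 of the other libraries, beside 10.2% to 12.7% of all genes. Once the libraries were set to equal medians or quantile normalized, Mcm6, Prim1 and Rfc4 were left, 3 of 39 beside 5.49% and 6.29% of all genes. In none of the 39 members were both EGC libraries above the 6 others, as 3.08% of all genes were. PGCLC libraries were above the 6 others for Mcm6, Mcm10 and Rpa1, 3 of 39 beside 6.57% of all genes, and below them for 0, beside 1.82%. The iPGC libraries were above all others for Rfc5 (6.31% of all genes) and below for Pcna (1.15%). The PGC libraries were above all others for Rfc1 (6.05%) and below for Mcm10 and Pold2 (15.2%).

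**Figure D3:**
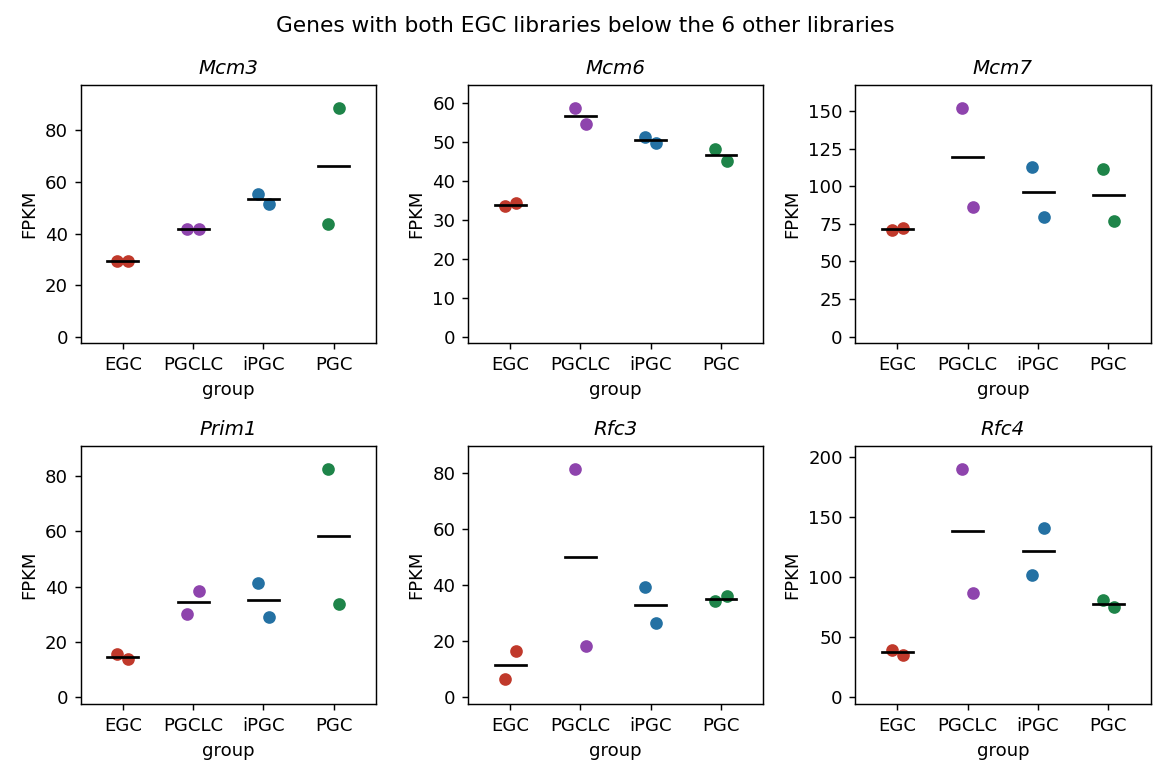
FPKM of the 6 genes with both EGC libraries below the 6 other libraries, by group (points are libraries, horizontal lines are means of 2). The EGC points lie together at 29.2 and 29.3 FPKM for Mcm3 and at 33.4 and 34.2 FPKM for Mcm6, while Mcm7 at 72.3 FPKM in EGC line 7 lies just under PGC library 2 at 77.0 FPKM; with equal library medians Mcm3, Mcm7 and Rfc3 no longer keep this order.

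Among the origin recognition genes, which mark where replication may start, no member passed in any comparison. Orc3, a core subunit and the gene of highest mean in this complex, was at 92.2 and 25.7 FPKM in EGC lines 4 and 7, 34.4 and 36.2 in PGCLCs, 29.4 and 39.7 in iPGCs, and 49.3 and 33.2 in PGCs. The EGC lines were its highest and its lowest library. Orc6, the smallest subunit of the complex and the widest in range here, was at 25.0 and 8.92 FPKM in EGC lines 4 and 7, 44.9 and 30.9 in PGCLCs, 40.4 and 26.2 in iPGCs, and 22.5 and 40.4 in PGCs. Both EGC libraries were below both PGCLC and both iPGC libraries, while they overlapped the PGCs (-0.96 ± 0.60). Orc1, the ATPase subunit that binds and leaves origins with the cell cycle, ranged from 10.1 FPKM in EGC line 7 to 48.8 FPKM in PGCLC library 1. Orc2, Orc4 and Orc5 ranged over 6.23 to 22.2, 13.4 to 31.5 and 7.80 to 29.7 FPKM. Reads of Orc2 are uncertain, since 1150 of its 3857 exon bases overlap Nif3l1 on the other strand and use of strand was not stated.

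Cdc6, the ATPase that loads MCM onto ORC-bound origins, was at 3.87 and 14.9 FPKM in EGC lines 4 and 7, 19.7 and 12.3 in PGCLCs, 16.5 and 28.5 in iPGCs, and 12.3 and 7.22 in PGCs. Both iPGC libraries were above both PGC libraries, by 1.12 ± 0.69, and above both EGC lines, and neither difference passed (limma adjusted p = 0.402 and 0.538). A processed pseudogene, Gm9430, matches 1528 bases of its transcript at 95.2% identity. Cdc7, the kinase that fires origins, had the narrowest range of group means of the 39, with 9.20 and 8.41 FPKM in EGCs, 9.04 and 7.27 in PGCLCs, 9.73 and 7.21 in iPGCs and 10.6 and 7.94 in PGCs. Its regulatory partner Dbf4 was at 38.1 and 30.1 FPKM in EGCs, 33.9 and 39.5 in PGCLCs, 47.4 and 47.9 in iPGCs, and 68.2 and 32.3 in PGCs. Dbf4 was above Cdc7 in each of the 8 libraries.

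The 6 subunits of the MCM ring, the motor that unwinds DNA, ranked from 1 to 18 by mean FPKM among the 39 members, with Mcm7 the highest of all and Mcm5 the lowest of the 6. Mcm7 was at 70.7 and 72.3 FPKM in EGC lines 4 and 7, 152 and 86.3 in PGCLCs, 113 and 79.3 in iPGCs, and 112 and 77.0 in PGCs. It was the highest of the 6 in 7 of 8 libraries. A processed pseudogene, Gm5487, matches 2157 bases of its transcript at 97.7% identity, and its exons overlap those of Ap4m1 and Cops6 on the other strand, so its level is uncertain. Mcm3, the widest of the 6 in range, was at 29.3 and 29.2 FPKM in EGCs, 41.6 and 41.8 in PGCLCs, 55.5 and 51.3 in iPGCs, and 43.8 and 88.8 in PGCs. The EGC lines were below the 6 other libraries, the 2 PGC libraries lay far apart, and the difference to PGCs was -1.07 ± 0.45 (limma adjusted p = 0.275). Mcm6 was at 33.4 and 34.2 FPKM in EGCs, 58.7 and 54.5 in PGCLCs, 51.2 and 49.8 in iPGCs, and 48.2 and 45.1 in PGCs, with close replicates in each group.

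All 6 MCM genes were negative in EGCs against PGCs, PGCLCs and iPGCs, where 46.9%, 66.2% and 69.5% of all genes were. In limma 0 of 6 passed. The median was -0.46 against PGCs, -0.66 against PGCLCs and -0.51 against iPGCs, where all genes had 0.07, -0.38 and -0.40. With equal library medians the medians were -0.56, -0.22 and -0.12, with 6, 5 and 5 of 6 negative. At an unadjusted p below 0.05 the only one was Mcm3 against PGCs. Mcm2, Mcm4 and Mcm5 ranged over 27.7 to 58.6, 22.03 to 52.4 and 20.3 to 51.5 FPKM, with EGC line 7 the lowest library for each of them. In PGCLCs against iPGCs the MCM genes were 4 positive and 2 negative, with a median of 0.17.

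The stretches before the starts of Mcm5, Mcm6 and Pola1 are shown because each holds an E2F word, the kind of site through which S phase genes are known to be switched on, and that of Pold2 because Pold2 is the member that differed between groups. The sequences are from RefSeq on GRCm38.p6, end at the base before the start of the gene in RefSeq or GENCODE, and hold no annotated exon. Capitals mark matches on either strand to the words TTTCCCGC, TTTCGCGC, TTTGCCGC and TTTGGCGC, and overlapping matches run together. They lie at chr8:75109259-75109508 on the plus strand, and at chr1:128359706-128359955, chrX:93632156-93632405 and chr11:5878293-5878506 on the minus strand, each written 5′ to 3′ in the direction of the gene.
Mcm5: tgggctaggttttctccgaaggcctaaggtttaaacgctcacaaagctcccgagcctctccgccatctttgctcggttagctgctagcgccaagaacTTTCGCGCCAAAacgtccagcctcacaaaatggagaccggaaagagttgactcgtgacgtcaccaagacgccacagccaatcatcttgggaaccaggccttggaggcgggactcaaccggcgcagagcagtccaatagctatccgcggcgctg
Mcm6: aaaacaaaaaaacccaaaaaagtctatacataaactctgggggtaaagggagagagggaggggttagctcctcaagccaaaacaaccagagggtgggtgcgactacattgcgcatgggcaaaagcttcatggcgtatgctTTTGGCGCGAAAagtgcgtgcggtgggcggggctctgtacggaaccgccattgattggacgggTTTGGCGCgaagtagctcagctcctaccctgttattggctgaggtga
Pola1: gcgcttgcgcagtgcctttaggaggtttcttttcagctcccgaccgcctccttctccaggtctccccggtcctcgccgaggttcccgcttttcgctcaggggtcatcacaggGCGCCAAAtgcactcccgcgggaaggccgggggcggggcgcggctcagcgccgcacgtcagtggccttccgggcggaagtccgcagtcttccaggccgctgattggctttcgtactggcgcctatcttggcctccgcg
Pold2: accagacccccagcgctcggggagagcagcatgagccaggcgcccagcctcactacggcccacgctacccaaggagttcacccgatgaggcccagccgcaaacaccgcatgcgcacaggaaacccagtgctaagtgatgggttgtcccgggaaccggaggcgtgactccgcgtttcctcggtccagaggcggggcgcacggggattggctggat
Mcm5 holds 2 matches that overlap, Mcm6 holds 3, and Pola1 holds 1. No match was found in the 214 bases of Pold2 shown. In the 250 bases before the start, 33 members had a window and 9 of these (27.3%) held 1 of the 4 words at any of their starts, beside 2.16% of the 27025 genes in the RefSeq table. The 9 were Cdc6, Gins3, Mcm5, Mcm6, Mcm7, Orc1, Orc3, Pola1 and Rfc3. This count and the next 2 use the full 250 bases before each RefSeq start, for members and all genes alike. The sequences shown were also cut at the GENCODE start. After that cut Gins3, Orc1 and Rfc3 held 0 E2F words, and the windows of Cdc6 and Mcm7 lay inside the GENCODE gene. For Orc3 this was not examined. The word CCAAT was found in 21 of 33 (63.6%) and the GC box GGGCGG in 24 of 33 (72.7%), beside 37.5% and 35.4% of all genes, on either strand. Pola1, with an E2F word, was at 13.8 and 10.4 FPKM in EGCs, 9.11 and 5.92 in PGCLCs, 7.82 and 9.63 in iPGCs, and 7.53 and 10.9 in PGCs. EGC line 4 was its highest library. The words are letters in a window and not measured binding.

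Of the genes that join MCM at the fork, Mcm10, which binds the active helicase and the polymerase alpha complex, had the highest mean. It was at 37.8 and 40.3 FPKM in EGCs, 63.7 and 77.9 in PGCLCs, 46.6 and 37.3 in iPGCs, and 31.2 and 28.6 in PGCs. Both PGC libraries were below the 6 others and both PGCLC libraries above them, and the difference of PGCLCs to PGCs was 1.21 ± 0.39 (limma adjusted p = 0.145). With equal library medians it was 0.67. Gins3, a subunit of the GINS ring, had the lowest mean of all 39, with 0.390 and 1.75 FPKM in EGCs, 8.71 and 3.25 in PGCLCs, 1.75 and 3.49 in iPGCs, and 1.52 and 1.79 in PGCs. Its partners Gins1 and Gins4 ranged over 14.5 to 26.4 and 20.6 to 64.4 FPKM, so Gins3 lay far below them in each library. Cdc45, the third component of the active helicase, ranged from 6.51 FPKM in EGC line 7 to 33.0 FPKM in PGCLC library 2. All 5 genes were negative in EGCs against PGCLCs and against iPGCs, where 66.2% and 69.5% of all genes were. All 5 were positive in PGCLCs and in iPGCs against PGCs, where 33.6% and 33.2% of all genes were negative. In each comparison 0 of 5 passed the test. These directions depended on scaling, since with equal library medians 3 of 5 were negative in each of the EGC comparisons, and 3 and 1 of 5 positive in PGCLCs and iPGCs against PGCs.

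Primase and polymerase alpha start each new strand. Prim1, the catalytic primase subunit, was at 15.6 and 13.9 FPKM in EGC lines 4 and 7, 30.2 and 38.4 in PGCLCs, 41.4 and 29.0 in iPGCs, and 82.6 and 33.8 in PGCs. Its EGC libraries were close together and below the 6 others, while PGC library 1 was the highest. The difference to PGCs was -1.78 ± 0.52, which did not pass (limma adjusted p = 0.145), and it was -1.88 with equal library medians. Pola2, the regulatory subunit of polymerase alpha, was at 3.38 and 58.2 FPKM in PGC libraries 1 and 2, its lowest and highest library, and at 14.3 to 44.9 FPKM in the 6 others. Prim2, the large primase subunit, was at 23.7 and 3.58 FPKM in the same PGC libraries, which were its highest and lowest, and at 3.64 to 17.5 FPKM in the others. The 2 PGC libraries thus bounded both genes, in opposite order.

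Polymerase delta is the main lagging-strand enzyme. Pold2, its regulatory B subunit (chromosome 11, 5872180 to 5878292, GRCm38), was at 58.8 and 36.4 FPKM in EGC lines 4 and 7, 134 and 48.6 in PGCLCs, 40.6 and 60.3 in iPGCs, and 1.48 and 0.160 in PGCs. The PGC libraries were far below the 6 others and no library overlapped. The differences to PGCs were 4.80 ± 0.64 in EGCs, 5.59 ± 0.64 in PGCLCs and 4.90 ± 0.64 in iPGCs. Pold2 was put forward with earlier results of these data known, so these values, and its passing the threshold above, are a description from which nothing is supported. Between the other groups it overlapped, with -0.79 ± 0.64 in EGCs against PGCLCs, -0.09 ± 0.64 in EGCs against iPGCs and 0.70 ± 0.64 in PGCLCs against iPGCs. The EGC to iPGC difference turned to 0.30 with equal library medians.

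In rank, Pold2 lay above 92.2% and 95.5% of tested genes in EGC lines 7 and 4 and above 89.9% to 97.2% in the 4 PGCLC and iPGC libraries, against 33.3% and 19.3% in PGC libraries 1 and 2. From the approximate depths and its longest transcript of 1646 bases, the PGC values correspond to about 51 reads in library 1 and about 4.2 reads in library 2, and to about 190 reads in the shallow iPGC library 1. The catalytic subunit gene Pold1 was at 37.1 and 30.1 FPKM in EGCs, 59.7 and 51.2 in PGCLCs, 70.5 and 69.3 in iPGCs, and 18.4 and 104 in PGCs. Pold3, a further subunit that binds PCNA, was at 70.1 and 23.8 FPKM in EGCs, 73.4 and 53.4 in PGCLCs, 31.7 and 52.0 in iPGCs, and 30.7 and 53.8 in PGCs. Both partners were therefore present in the PGC libraries in which Pold2 was low. The ratio of Pold2 to Pold1 was 1.59 and 1.21 in EGCs, 2.25 and 0.950 in PGCLCs, 0.576 and 0.869 in iPGCs, and 0.0804 and 0.0015 in PGCs.

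**Figure D4:**
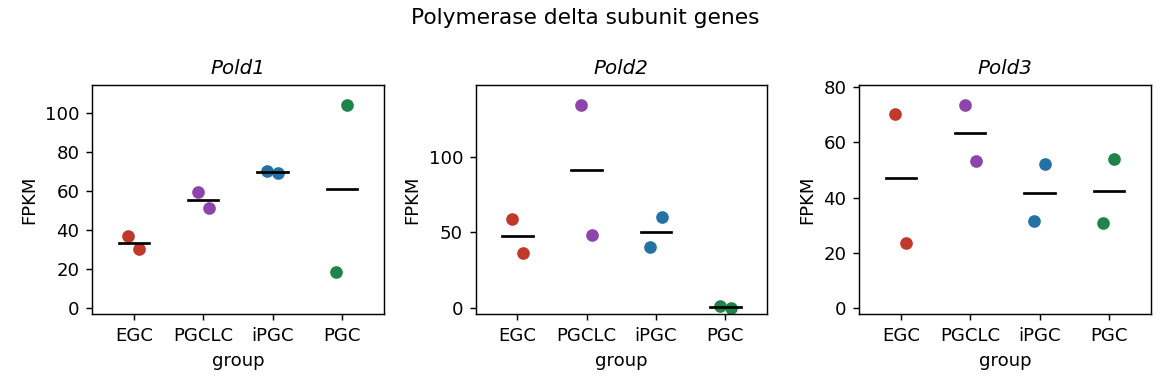
FPKM of the 3 polymerase delta genes among the 39 members, by group (points are libraries, horizontal lines are means of 2). Pold2 lies at 1.48 and 0.160 FPKM in PGCs and at 36.4 FPKM or more in the 6 other libraries. In PGCs, Pold1 lies at 18.4 and 104 FPKM, below and above the 6 others. Pold3 lies at 30.7 and 53.8 FPKM in PGCs, within the range of the 6 others.

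Annotation gave no overlapping exon and no transcript of another gene at 95% identity over 100 bases or more for Pold2. Aebp1, which ends 91 bases from it on the other strand, was at 0.969 FPKM or less in all 8 libraries. Beside the low Pold2 level, the yolk sac endoderm markers summed to 197 and 2.53 FPKM, the myeloid and platelet markers to 163 and 14.5 FPKM, and the erythroid markers to 9.38 and 32.7 FPKM in PGC libraries 1 and 2, and their part in it was not tested. Pold2 was not past the threshold, so that 0 of 39 members passed, without EGC line 4 or 7 in EGCs against PGCs (4.46 and 5.14), without PGCLC library 1 or 2 in PGCLCs against PGCs (4.87 and 6.32), and without iPGC library 1 or 2 in all 3 (5.18 and 4.62 in iPGCs against PGCs).

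Polymerase epsilon copies the leading strand. Its catalytic gene Pole was at 11.9 and 15.1 FPKM in EGCs, 20.8 and 16.5 in PGCLCs, 15.9 and 17.6 in iPGCs, and 6.80 and 22.7 in PGCs. The other subunit gene among the 39, Pole2, was at 6.77 and 7.26 FPKM in EGCs, 2.25 and 6.52 in PGCLCs, 11.3 and 6.66 in iPGCs, and 1.19 and 5.21 in PGCs. The subunit genes Pole3 and Pole4 were placed in a related list. The PGC libraries were the 2 extremes of Pole, and for Pole2 both EGC and both iPGC libraries were above both PGC libraries. Neither gene passed in any comparison.

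In the clamp loader, Rfc3 and Rfc4 were lowest in the EGC lines, and with equal library medians Rfc4 still was while Rfc3 was not. Rfc4, a small loader subunit with the highest mean after Mcm7 out of the 39, was at 39.1 and 35.6 FPKM in EGC lines 4 and 7, 190 and 87.0 in PGCLCs, 102 and 141 in iPGCs, and 80.6 and 75.2 in PGCs. The EGC lines were below all other libraries, by -1.76 ± 0.46 against PGCLCs, -1.66 ± 0.46 against iPGCs and -1.04 ± 0.46 against PGCs, and none passed (limma adjusted p = 0.192, 0.308 and 0.292). With equal library medians these were -1.32, -1.26 and -1.14. Exons of Rfc4 overlap by 194 bases those of Eif4a2, which reached 627 FPKM in PGCLC library 1, so its level is uncertain. Rfc3, another small subunit, was at 6.58 and 16.4 FPKM in EGCs, 81.7 and 18.5 in PGCLCs, 39.3 and 26.7 in iPGCs, and 34.3 and 36.1 in PGCs. PGCLC library 1 stood well above its partner, which was close to EGC line 7.

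Rfc1, the large loader subunit, was at 45.8 and 29.9 FPKM in EGCs, 45.2 and 28.2 in PGCLCs, 47.6 and 41.03 in iPGCs, and 100.0 and 66.4 in PGCs, so that both PGC libraries were above the 6 others, and no difference passed (-1.12 ± 0.46 in EGCs, limma adjusted p = 0.263). Pcna, the clamp, was at 21.7 and 20.4 FPKM in EGCs, 29.8 and 20.1 in PGCLCs, 17.9 and 17.3 in iPGCs, and 50.4 and 21.7 in PGCs. The iPGC libraries were the lowest 2, and PGC library 1 was the highest. Pcna-ps2, a processed pseudogene, matches 781 bases of Pcna at 99.2% identity, so the level of Pcna is uncertain. Rfc2 and Rfc5 ranged over 11.4 to 34.4 and 11.9 to 34.1 FPKM, and both share sequence with other transcripts, Rfc2 with Lat2 over 952 exon bases and Rfc5 with the pseudogene Gm12870 over 1020. Rfc4 was the highest of the 5 loader genes in 6 of 8 libraries and Rfc1 in the other 2.

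All 6 genes of clamp and loader were negative in EGCs against PGCs, where 46.9% of all genes were. Their median was -0.84, and 0 of 6 passed the test. With quantile normalization 5 of 6 were negative. RPA, the single-strand binding protein, has 3 subunits. Rpa1, the large one, was at 34.0 and 30.7 FPKM in EGCs, 60.3 and 57.8 in PGCLCs, 31.7 and 42.8 in iPGCs, and 11.6 and 49.8 in PGCs. PGCLCs held its 2 highest libraries and PGC library 1 its lowest. Rpa2 and Rpa3 ranged over 16.3 to 53.1 and 12.5 to 33.7 FPKM. All 3 had both EGC libraries below both PGCLC libraries, as did 34.2% of all genes and 42.3% of those with a mean of at least 10 FPKM, and 0 of 3 passed the test.

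Fen1, the flap nuclease, was at 0.989 and 9.13 FPKM in EGC lines 4 and 7, 39.2 and 9.30 in PGCLCs, 9.19 and 8.96 in iPGCs, and 12.7 and 13.1 in PGCs. Line 4 was far below and PGCLC library 1 far above the 6 others, which lay between 8.96 and 13.1 FPKM. The annotation has Gm10143 on the other strand over 1909 of the 2422 exon bases of Fen1, so its level is uncertain. The difference of EGCs to PGCLCs was -2.18 ± 0.89 (limma adjusted p = 0.331).

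Libraries of 1 group differed among themselves as well. Among members at 10 FPKM or more in either library of a pair, the median absolute log2 difference was 0.52 between the EGC lines (34 members), 0.50 in PGCLCs (35), 0.41 in iPGCs (34) and 0.69 in PGCs (36). Over all genes at that level it was 0.69, 0.76, 0.44 and 1.05. More than 1 on the log2 scale separated the pair for 10 members in EGCs, 8 in PGCLCs, 1 in iPGCs and 11 in PGCs, beside 36.9%, 37.7%, 16.9% and 51.9% of all genes at that level. The spread of the replication genes was thus below that of genes past the same minimum in each group, and widest in PGCs.

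The list was also set beside genes of the same pathway. Of 35 other fork and origin factors, 33 were tested, and 0 passed in any comparison in limma. Pold4, a further subunit gene of polymerase delta, was listed at 0 in all 8 libraries and was not tested. At an unadjusted p below 0.05 there were 2 of 33 in EGCs, 7 in PGCLCs and 6 in iPGCs against PGCs, where 17.2%, 19.5% and 19.5% of all genes did. Mcm8, which acts with Mcm9 in fork repair, was the widest in range, at 5.53 and 7.44 FPKM in EGCs, 8.01 and 7.15 in PGCLCs, 9.61 and 9.03 in iPGCs, and 25.0 and 39.6 in PGCs. Both PGC libraries were above the 6 others, and the difference of EGCs was -2.13 ± 0.51 (limma adjusted p = 0.0952). Rnaseh2a, a subunit of the nuclease that removes RNA from DNA, was at 16.6 and 37.3 FPKM in EGCs, 156 and 34.3 in PGCLCs, 82.1 and 50.3 in iPGCs, and 4.25 and 57.9 in PGCs. The list median was -0.36 in EGCs, 0.16 in PGCLCs and -0.13 in iPGCs against PGCs.

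Of 16 genes of dNTP supply, which feeds the polymerases, 0 passed in any comparison in limma, and 1, 2 and 1 of 16 did at an unadjusted p below 0.05 in EGCs, PGCLCs and iPGCs against PGCs, where 17.2%, 19.5% and 19.5% of all genes did. Dctpp1, which clears modified nucleotides, was at 20.3 and 88.2 FPKM in EGCs, 149.5 and 146 in PGCLCs, 141 and 114 in iPGCs, and 29.7 and 30.1 in PGCs. The 4 PGCLC and iPGC libraries were above all others. Tk1, the S phase thymidine kinase, was at 49.7 and 14.7 FPKM in EGCs, 50.7 and 28.5 in PGCLCs, 33.0 and 21.5 in iPGCs, and 19.0 and 2.37 in PGCs. Of 12 replication checkpoint genes 11 were tested and 0 passed in limma, with 0, 3 and 1 of 11 at an unadjusted p below 0.05 in the same 3 comparisons. Hus1, part of a clamp that senses stalled forks, was at 8.01 and 20.3 FPKM in EGCs, 41.8 and 58.1 in PGCLCs, 16.7 and 27.2 in iPGCs, and 3.02 and 14.2 in PGCs. Atrip, the partner of the kinase ATR, was lowest in PGCLCs, at 0.999 and 0.776 FPKM, with 5.61 and 3.84 in EGCs, 4.43 and 4.68 in iPGCs, and 5.61 and 9.47 in PGCs.

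Among 30 regulators of the G1 to S step, 28 were tested and 0 passed in any comparison in limma, with 7, 8 and 6 of 28 at an unadjusted p below 0.05 in EGCs, PGCLCs and iPGCs against PGCs, where 17.2%, 19.5% and 19.5% of all genes did. Ccnd1, the cyclin that drives exit from G1, was at 89.3 and 59.6 FPKM in EGCs, 24.8 and 1.08 in PGCLCs, 5.33 and 4.91 in iPGCs, and 12.4 and 0.0858 in PGCs. Its sister Ccnd2 was at 1.89 and 1.12 FPKM in EGCs, 0 and 0.0329 in PGCLCs, 0.0635 and 0.125 in iPGCs, and 21.8 and 5.31 in PGCs. The EGC lines held the 2 highest Ccnd1 values and the PGC libraries the 2 highest Ccnd2 values. Cdk2, the partner of cyclins E and A, named after its values were seen, was at 14.8 and 5.55 FPKM in EGCs, 3.75 and 7.41 in PGCLCs, and 4.91 and 10.7 in iPGCs, and is listed at 0 for each PGC library. Of 16 mitotic genes 1 passed, the mitotic kinase Cdk1 in iPGCs against PGCs (3.23 ± 0.57, limma adjusted p = 0.0482). In that comparison 0.794% of all genes passed, and 0 of 16 passed in the other comparisons. Cdk1 did not pass in the limma F test over the 4 groups (adjusted p = 0.0901). At an unadjusted p below 0.05 in limma, 4 of 16 were higher and 1 lower in EGCs against PGCs. The numbers were 3 and 1 in PGCLCs and 5 and 1 in iPGCs against PGCs. Beside them stood 17.2%, 19.5% and 19.5% of all genes in either direction. Cdk1 was at 28.97 and 45.4 FPKM in EGCs, 72.6 and 47.8 in PGCLCs, 110.2 and 48.3 in iPGCs, and 4.76 and 9.74 in PGCs. Cdc20, which activates the anaphase complex, was at 37.1 and 26.4 FPKM in EGCs, 19.2 and 16.9 in PGCLCs, 21.9 and 32.5 in iPGCs, and 3.86 and 12.4 in PGCs.

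**Figure D5:**
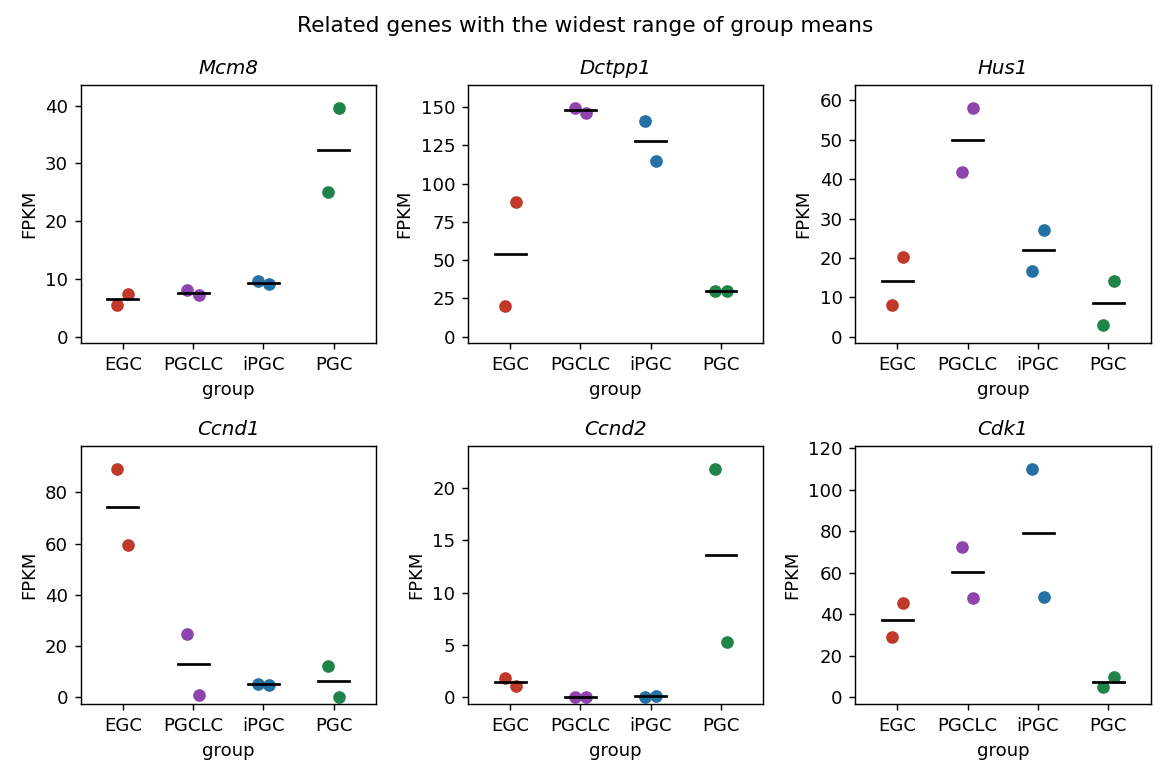
FPKM by group of related genes with a wide range of group means (points are libraries, horizontal lines are means of 2). Mcm8 and Ccnd2 are highest in the 2 PGC libraries, Ccnd1 is highest in the 2 EGC lines at 89.3 and 59.6 FPKM, and Cdk1 is lowest in PGCs at 4.76 and 9.74 FPKM.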

How the data were processed

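RNA from 8 libraries in 4 groups was amplified and sequenced as 50-base single reads in 2 lanes, per the labels' protocols. The FPKM values were made by the authors and are used as deposited; TopHat2, Cufflinks and the mouse build GRCm38 (mm10) are named in the submitters' processing notes, with no version; the annotation, and whether strand was used, could not be read from these sources. The 41 genes and all lists were chosen with earlier results of these data known. Of 20171 rows, 18 repeats were dropped. Symbols gave the members, and identifiers were matched to GENCODE M21 (19747 of 20153).

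The 11083 genes that reached 1 FPKM in 2 or more libraries were tested as log2(FPKM + 1), pseudocount 1, with limma 3.58.1 in R 4.3.3, with variance trend, robust fit, all 4 groups in 1 model (4 residual degrees of freedom) and Benjamini-Hochberg adjustment at 0.05 over all tested genes. This scale understates changes of low genes. The fit was also run on simulated data with independent normal noise and changes in EGCs alone. That setting cannot show how well the threshold holds in these libraries. The design text calls the libraries biological replicates; p-values measure the spread between these libraries. All members could be named, with values per library for Pold2, members past the threshold, and the highest and widest of each complex; in related lists, genes past the threshold and the 2 widest were named, and values of further members were added after they were seen. Near-identical transcripts were sought with BLAST+ 2.17.0, and tables were handled with pandas 2.3.3 in Python 3.11.15. Other pseudocounts, filters, scalings, samples left out and a replicate block were tried.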

Additional observations from a re-analysis of the deposited data

How the results depend on the processing

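The count of members past the threshold against PGCs was 1, Pold2, and became 0 in EGCs, PGCLCs and iPGCs alike without the filter or with only the 2 groups compared, 0 in EGCs and iPGCs with a pseudocount of 5 (Pold2 log2 differences of 3.15 and 3.24), and 0 in the F test with a pseudocount of 5 or no filter. Leaving out each library in turn gave 0 to 1 in each of these 4 tests: 0 without either iPGC library in all 4, without either EGC line in EGCs against PGCs and the F test, without either PGCLC library in PGCLCs against PGCs, and without PGCLC library 1 or PGC library 2 in the F test. A lone library left in a group is then assumed to vary like the other groups. The sign of the Pold2 difference to PGCs was positive under each of these settings.

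Replicate numbers are shared by PGCLCs, iPGCs and PGCs. Deviations of same-numbered libraries correlated at -0.03, 0.01 and 0.06 for PGCLCs with PGCs, iPGCs with PGCs and PGCLCs with iPGCs. These correlations run over all tested genes and cannot exclude a pairing or batch that acts on some genes. With the replicate block and EGCs left out, 0 members passed in PGCLCs and 0 in iPGCs against PGCs, against 1 and 1 without the block. Over all genes, 10 passed with the block in iPGCs against PGCs and 40 without it.

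The members' median log2 difference moved to -0.039 and -0.29 in PGCLCs against PGCs with quantile normalization and equal library medians, to -0.43 in iPGCs against PGCs with equal medians, to -0.098 and -0.053 in EGCs against iPGCs and to -0.18 and -0.22 in EGCs against PGCLCs. Leaving out each library gave -0.78 to -0.38 in the last. Members with both EGC lines below all others were 3 with either scaling, beside 6.29% and 5.49% of all genes. They were 6 to 16 without 1 library, beside 10.2% to 21.5% of all genes. These settings were added after seeing the data. The cause of these shifts was not tested. Low values in the shallow iPGC library 1, and the Pold2 values of PGCs, rest on few reads.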
